A study of Mus musculus with 21 samples.

Results

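In mouse ventricles at E12.5, 700 of 49798 merged GATA4 regions were bound in the Tie2-Cre lineage, were without a peak in the Tnnt2-Cre lineage, and did not meet the criterion for open chromatin in sorted endothelial cells. They were chosen by peak calls alone. Peaks of the 6 GATA4 libraries that shared at least 1 bp were merged into regions. A region was kept when it had a peak in at least 2 of the 3 Tie2-Cre lists and in 0 of the 3 Tnnt2-Cre lists. It also had to overlap no stretch of endothelial open chromatin that had peaks in both Tie2-Cre ATAC libraries. The 700 regions made up 11.5% of the 6095 Tie2-Cre-selective regions; the other 5395 were open by the same criterion. For comparison, use is made of 5281 Tnnt2-Cre-selective regions not open in endothelium and 6535 regions shared by both lineages.

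All samples came from E12.5 hearts. For GATA4, a biotinylatable GATA4 was tagged only where Cre was active and was pulled down with streptavidin from pools of 15 to 20 ventricles, in 3 libraries with Tie2-Cre and 3 with Tnnt2-Cre. Open chromatin was profiled by ATAC in 2 libraries of 40K cells sorted by a Tie2-Cre-activated Rosa26fsTRAP reporter (endothelial cells, EC). In 6 further ATAC libraries of 20K cells each, cells were sorted by a Rosa26mTmG reporter that Cdh5-CreERT2 had switched on after 1 mg of tamoxifen at E9.5. Of these, 3 were labelled Gata4 het and 3 Gata4 ko, and in both genotypes the cells carried the same driver, reporter and tamoxifen treatment. RNA came from sorted Tie2-Cre EC in 2 libraries and from cardiomyocytes (CM) in 3 libraries. Tie2-Cre is active in endothelium, in endocardium and in mesenchyme derived from it, and it also marks blood cells, so its libraries are not purely endothelial by design. Tamoxifen at E9.5 removes Gata4 only from cells in which Cdh5-CreERT2 acted, and loss of Gata4 in these 6 libraries was not checked, because no RNA of them was analysed here. The labels do not say which replicates came from different litters. The p-values therefore measure only the spread between these samples, which may be technical.

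GATA4 is a zinc-finger transcription factor that binds GATA sequences in enhancers and promoters and is needed in both the myocardium and the endocardium, where it acts in valve formation. Most sites occupied by such factors lie in open chromatin, where a transposase can insert and ATAC gives a peak. Some GATA factors can also bind sites wrapped in nucleosomes, so occupied sites outside called open chromatin are of interest in their own right. A missing ATAC peak is a call in a list and does not show that a site was closed.

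The occupancy itself rested mainly on 2 libraries. Peaks in Tie2-Cre replicates 1 and 3 only defined 642 of the 700 regions (91.7%), and 43 regions (6.14%) had a peak in all 3 lists. A further 11 had peaks in replicates 2 and 3 only and 4 in replicates 1 and 2 only. Replicate 2 held 2734 peaks, against 17682 in replicate 1 and 25936 in replicate 3. Without replicate 1 or replicate 3, 54 and 47 regions met the rule, since both remaining lists, short replicate 2 included, then had to hold a peak. With peak lists cut to equal length 42 did. The 700 regions thus depended on the lists of replicates 1 and 3 being long.

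Within the lists, the regions were of middling strength. Their median fold over background, as the authors' peak caller gave it, was 5.34 in replicate 1, 5.65 in the 58 regions with a replicate 2 peak, and 5.28 in replicate 3. Ranked by signal within each list, where the strongest peak has percentile 100, their median lay at the percentiles 49.8, 40.9 and 53.1. The open Tie2-Cre-selective regions had medians of 52.7, 45.4 and 62.5. The gap between the medians of the classes was therefore largest in replicate 3. Peak summits in replicates 1 and 3 lay a median of 48 bp apart, at 685 regions with both peaks, and the open class had the same median of 48 bp. These values helped choose the regions and are given as a description.

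**Figure D1:**
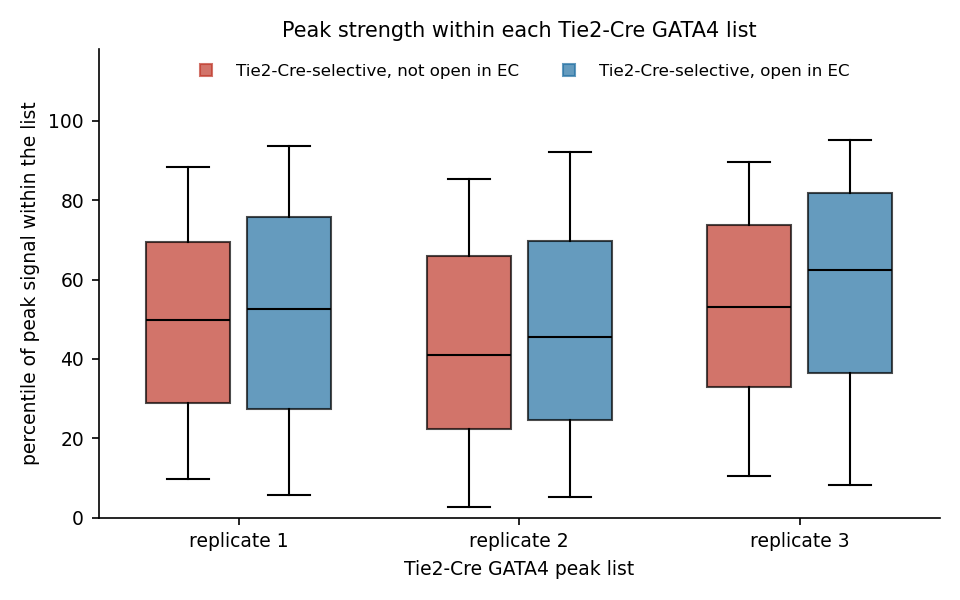
Percentile of peak signal within each Tie2-Cre GATA4 list (y axis) for regions not open in EC (red) and open in EC (blue), by replicate (x axis). Lines mark medians, boxes the middle 50% and whiskers the 5th to 95th percentiles; the red medians are 49.8, 40.9 and 53.1 and the blue ones 52.7, 45.4 and 62.5, with wide overlap in every list.

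The neighbourhood of the rule's threshold was well filled. Just outside it, 2279 regions not open in EC had a peak in 1 Tie2-Cre list and in no Tnnt2-Cre list. Another 120 had at least 2 Tie2-Cre lists and 1 Tnnt2-Cre list, and 384 had at least 2 lists of each lineage. On the open-chromatin side, 414 of the 700 regions had no EC ATAC peak in either list. ATAC replicate 3 alone gave a peak at 33.4% of the regions and replicate 2 alone at 7.29%, and at 1 region the peaks of the 2 lists did not touch. The name "not open" therefore holds in its strict form, no peak in either list, for 59.1% of them.

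RefSeq promoter sequence was within reach for few of these regions, since only 2 of the 700 lay within 1 kb of a transcription start in the count table's gene models. Distances depend on those models: the region shown next is 254850 bp from a start in the count table, and another, near the RefSeq gene Gm40541, is 53751 bp from one. One stretch of upstream sequence inside a member region is shown, because it is the only upstream stretch in the RefSeq promoter table that was found inside one of the regions. The region covers bases 14041779 to 14042135 of chromosome 1, and its last 132 bases are bases -250 to -119 before the start of the long non-coding RNA gene Gm39596 (GRCm38.p6, which has the coordinates of mm10, plus strand, chr1:14042004-14042135).
Gm39596 upstream: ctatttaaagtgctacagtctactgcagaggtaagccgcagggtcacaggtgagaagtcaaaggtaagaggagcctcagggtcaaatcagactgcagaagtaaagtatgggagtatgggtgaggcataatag
The sequence was searched on both strands for the GATA motif in the forms AGATAA and AGATAG and the same forms begun with T in place of the first A, which would stand in capitals, and it held 0. Of 32851 RefSeq promoter windows, 16.8% held at least 1 of these forms in their first 132 bases, counting overlapping forms once. The summits of the Tie2-Cre peaks lay 159 bp (replicate 1) and 112 bp (replicate 3) outside the stretch, so the bases under the summits are not shown.

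The regions lay far from transcription starts, although 36.4% had their centre inside an intron. Their median distance to the nearest transcription start was 72878 bp, compared with 41125 bp for the open Tie2-Cre-selective regions, 50607 bp for the Tnnt2-Cre-selective regions not open in EC, 19397 bp for shared regions and 28796 bp for all 49798 regions. Within 50 kb of a start lay 262 of them (37.4%), against 56.0% of the open class, 49.7% of the Tnnt2-Cre-selective regions not open in EC and 68.5% of shared regions. More than 100 kb from any start lay 42.4%, against 25.2% of the open class. By the position of the centre base, 440 (62.9%) lay between genes, 255 in introns and 5 (0.714%) in an exon. Exons reached only by a region's edge were not counted. Their surroundings held few genes: the median number of starts within 500 kb was 6, against 9 in the open class, 8 in the Tnnt2-Cre-selective class and 10 in shared regions. No test was made of these differences, since regions are not replicates. The share within 50 kb was 23.3% for the 43 regions with peaks in all 3 Tie2-Cre lists, 31.5% without Tie2-Cre replicate 1 and 27.7% without Tie2-Cre replicate 3. These small sets are largely the same regions and not separate checks.

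**Figure D2:**
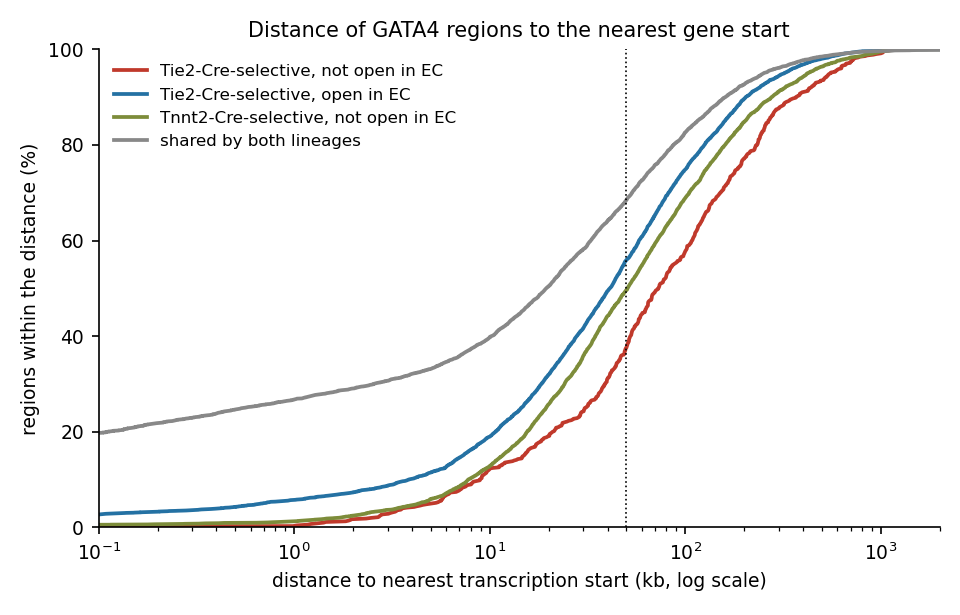
Cumulative share of regions (y axis, %) within a given distance of the nearest transcription start (x axis, kb, log scale), for each of 4 classes of GATA4 region. The red curve of Tie2-Cre-selective regions not open in EC is the lowest beyond 10 kb; at the dotted line (50 kb) it stands at 37.4% and the blue curve of open regions at 56.0%.

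Few regions were centred in exons. The region at Cyp17a1, which encodes a steroid-synthesising cytochrome P450, was the only one to overlap a transcription start (chromosome 19, 46672679 to 46673200, mm10). Cyp17a1 stood at 2.76 and 1.90 CPM (reads on a gene scaled to the size of the library) in the EC libraries and at 0.604, 0.612 and 0.538 in the CM libraries. All EC values were above all CM values, by 2.0 on the log2 scale (SE 0.32, adjusted p = 0.000168, edgeR quasi-likelihood test). The other 4 regions centred in an exon included those at Igf1 on chromosome 10 and Gcnt1 on chromosome 19. The rest lay at Palm2 and Pakap on chromosome 4, and at Kcnq1 and the non-coding Kcnq1ot1 on chromosome 7. Igf1, a growth factor gene, had 398 and 447 CPM in EC and 36.4, 40.0 and 45.9 in CM (log2 fold change 3.37, SE 0.10, adjusted p = 3.61e-10, edgeR). Kcnq1ot1, an imprinted antisense transcript, went the other way, averaging 106 ± 7.72 CPM (SD) over the EC libraries against 423 ± 15.5 over the CM libraries (log2 fold change -1.99, adjusted p = 2.89e-09, edgeR); these genes were picked after their values were seen.

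Distances to open stretches were like those of the other class not open in EC. The median distance to the nearest open EC region was 8313 bp, 83 regions (11.9%) lay within 1 kb and 43.9% lay beyond 10 kb. For the Tnnt2-Cre-selective regions not open in EC the median was 8266 bp, with 9.96% within 1 kb and 44.2% beyond 10 kb. Another Tie2-Cre-selective region that was open lay within 50 kb of 220 of the 700 (31.4%). A Tnnt2-Cre GATA4 peak lay within 1 kb of 20 regions and within 10 kb of 180 (25.7%). These counts near other GATA4 sites were not made for the other classes and are a description only. Of neighbouring pairs of the 700 regions, 34 lay within 100 kb of each other and 3 within 10 kb, also without a count for other classes.

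The Cdh5-CreERT2 libraries, which the rule did not use, asked whether the missing ATAC peaks recurred in other sorted endothelial cells. They did for most regions in every library. The Cdh5-CreERT2 lists were shorter, with 55733 to 90326 peaks, against 114599 and 130708 in the Tie2-Cre ATAC lists. The lowest −log10 q in the Tie2-Cre ATAC lists was 1.31. In the Cdh5-CreERT2 lists the lowest −log10 p was 2.31, so the lists may not share a cut-off. Of all 49798 merged GATA4 regions, 45.7% to 60.3% had a peak in a Cdh5-CreERT2 list, against 70.2% and 73.9% in the Tie2-Cre lists. The part of list length or of the cut-offs in the missing peaks was not tested. An ATAC peak was present at 29.0%, 19.9% and 15.9% of the 700 regions in het replicates 2, 3 and 4. It was present at 30.0%, 18.7% and 4.29% in ko replicates 2, 3 and 4. In the open Tie2-Cre-selective class the same libraries had a peak at 88.9%, 86.7%, 78.0%, 88.4%, 84.4% and 71.7% of regions. The regions not open in Tie2-Cre EC were thus lower in 6 of 6 libraries, by 63.4 percentage points (SD 3.80, n = 6), with differences between -67.4 and -58.4 points that never neared 0. The exact two-sided sign-change permutation test over libraries gave p = 0.0312, the smallest it can give with 6 libraries. Leaving out any 1 library leaves a smallest possible p of 0.0625. Both classes were defined by ATAC peaks in Tie2-Cre EC, so this direction was likely from the choice itself. Nothing about the regions is read from the p-value.

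The regions varied among themselves in these 6 lists. No Cdh5-CreERT2 list had a peak at 321 regions (45.9%), 1 or 2 lists did at 260 (37.1%) and 3 to 6 lists at 119 (17.0%). Of the open class, 62.6% had a peak in all 6 lists, compared with 5 of the 700 regions (0.714%). As a description, since the Tie2-Cre EC ATAC lists took part in the choice, such a peak was present in at least 1 of those lists at 40.9% of all 700 regions, at 73.1% of the 119 and at 23.1% of the 321. The median of the mean GATA4 signal percentile was 57.3 for the 119 and 47.3 for the 321.

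Compared with Tnnt2-Cre-selective regions not open in EC, the 700 regions more often had an endothelial ATAC peak. That class had a peak at 6.21%, 2.97% and 1.59% of regions in het and at 4.26%, 2.50% and 0.568% in ko. The difference averaged 16.6 points (SD 7.66, n = 6), from 3.72 to 25.7, and was positive in 6 of 6 libraries. The exact sign-change permutation test gave a two-sided p of 0.0312, the smallest it can give. This comparison was added after the data were seen. Both classes were chosen by the lineage of their GATA4 peaks, and the 700 regions already had a peak more often in each Tie2-Cre ATAC list. The choice of classes may have favoured this direction, which was not tested. Nothing about the regions is read from the p-values of this comparison. The difference was smaller with other treatments of the ATAC lists, and the cause was not tested. It was 5.66 points with the 6 lists cut to equal length (exact p = 0.0312) and 2.62 points with peaks of −log10 q of at least 5 (exact p = 0.0625, which no longer passed). Among the regions with no peak in either Tie2-Cre ATAC list in both classes, it was 10.5 points (2.19 to 16.2, exact p = 0.0312). There the shares were 12.3% on average for 414 regions and 1.75% for 4527 Tnnt2-Cre-selective regions.

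**Figure D3:**
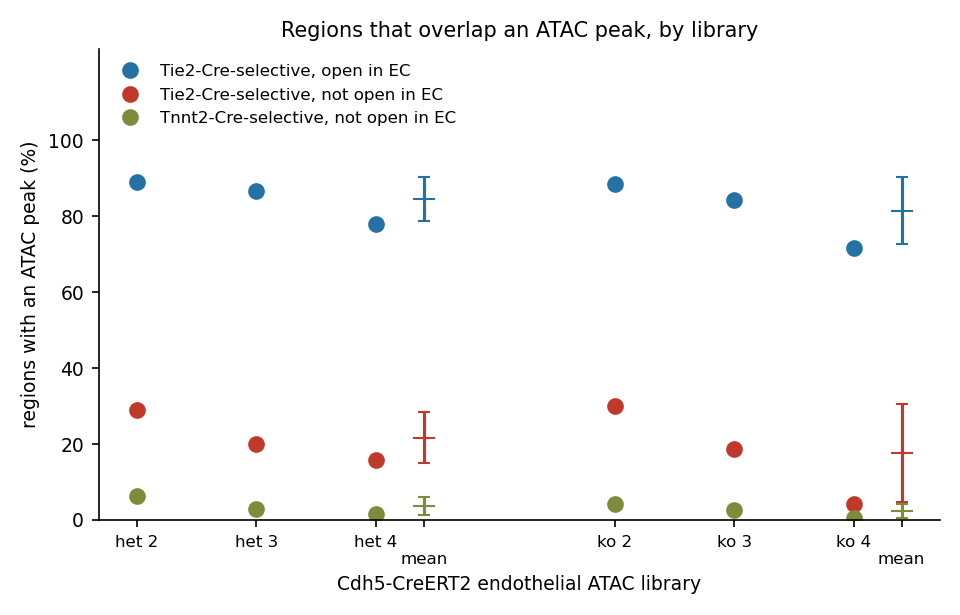
Share of regions (y axis, %) that overlap an ATAC peak in each Cdh5-CreERT2 library (x axis), for 3 classes of GATA4 region; dashes with bars are the mean and SD of 3 libraries. Red points lie between 4.29% and 30.0%, far below the blue points of open regions (71.7% to 88.9%) and above the green points of Tnnt2-Cre-selective regions in each library.

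Loss of Gata4 was set against these shares. The mean share with a peak was 21.6% ± 6.74 (SD, n = 3) in het and 17.7% ± 12.9 (SD, n = 3) in ko, a difference of 3.9 points. The genotypes overlapped, and ko replicate 2 had the highest share of all. The exact two-sided permutation test over libraries gave p = 0.7, where 3 against 3 cannot go below 0.1. The lowest share was in ko replicate 4, whose list of 55733 peaks was the shortest of the 6 (the others held 67201 to 90326). Without it the difference was -2.79 points, and with all lists cut to 55733 peaks it was 0.0476 points. Without ko replicate 2 it was 10.1 points, and without het replicate 2 it was 0.190 points. The same het minus ko difference was 2.56 points over all regions with a Tie2-Cre GATA4 peak and 3.05 points over the open class.

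Single regions that separated the genotypes were rare. A peak in all 3 het lists and no ko list was found at 3 of the 700 regions (0.429%), against 0.203% of all GATA4 regions. The reverse was found at 1 region (0.143%), against 0.0843% of all. The first of the 3 lay 1213 bp from the start of Rgs13, a regulator of G-protein signalling, on chromosome 1 (144178585 to 144178886), with fold 6.95 and 7.70 in Tie2-Cre replicates 1 and 3. Rgs13 had 0 counts in each RNA library. The second lay in an intron of March1, which encodes a membrane-bound ubiquitin ligase, on chromosome 8 (66413065 to 66413332), 73175 bp from the nearest start, that of Tma16. The third lay on chromosome 18 between genes, 47229 bp from Timm21, a mitochondrial import gene that was lower in EC (17.8 and 19.6 CPM) than in CM (29.2, 27.4 and 29.5 CPM; adjusted p = 0.000179, edgeR). The reverse case lay in an intron of Tmigd3 on chromosome 3 (105877588 to 105877973), 6730 bp from its start. With counts this small, nothing is read from the shares.

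Of the 43 regions with a peak in all 3 Tie2-Cre lists, the 6 with the highest mean percentile lay mostly away from starts. The first lay in an intron of Pard3b, a cell polarity gene, on chromosome 1 (61874745 to 61875205), with folds of 7.35, 7.18 and 8.04 in replicates 1, 2 and 3. It had no Tie2-Cre EC ATAC peak although an open EC region lay 724 bp away, and had a peak in ko replicates 2 and 4 alone among the 6 Cdh5-CreERT2 lists. Pard3b itself was lower in EC, with 21.4 and 21.2 CPM against 39.3, 40.5 and 41.8 in CM (log2 fold change -0.93, SE 0.09, adjusted p = 2.76e-06, edgeR). The next lay on chromosome 8 (23301272 to 23301895), 44192 bp from Golga7, which encodes a partner of protein palmitoyltransferases and had 92.6 and 102 CPM in EC and 51.7, 47.1 and 48.9 in CM. The third, on chromosome 3 (38641750 to 38642137), lay 156934 bp from Ankrd50, an endosomal recycling gene with 79.8 and 88.6 CPM in EC and 33.7 to 34.3 in CM. Both genes were higher in EC, by 0.98 and 1.3 on the log2 scale (adjusted p = 7.25e-07 and 6.62e-08, edgeR).

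The other 3 of these 6 had nearest genes of low expression. One lay 705446 bp from Lsamp, a neuronal adhesion gene, on chromosome 16 (40827243 to 40827896), and Lsamp had at most 0.853 CPM in any library. One lay 17195 bp from Tm4sf5, a tetraspanin-like membrane protein gene, on chromosome 11 (70487801 to 70488079), with 0.284 and 0.951 CPM in EC. One lay 1957 bp from 2310005E17Rik, which had 0 counts, on chromosome 13 (98437022 to 98437394). It had an ATAC peak in Tie2-Cre EC replicate 3, in all 3 het libraries and in ko replicates 2 and 3. The other 5 had none in Tie2-Cre EC or het lists, and all of them but the one near Ankrd50 had a peak in ko replicate 2.

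The 5 regions with a peak in all 6 Cdh5-CreERT2 lists were picked out after their values were seen. The strongest lay 6849 bp from the start of Gulp1, an engulfment adaptor gene, on chromosome 1 (44544459 to 44544822), with folds of 9.83 and 10.8 in replicates 1 and 3, at percentiles 98.0 and 98.6. It had no peak in either Tie2-Cre EC ATAC list. Gulp1 had 65.7 and 71.0 CPM in EC and 38.9, 34.4 and 30.4 in CM, with no overlap (log2 fold change 0.98, SE 0.10, adjusted p = 6.69e-06, edgeR). A second lay in an intron of Sncaip, the gene of synphilin-1, on chromosome 18, which had 97.9 ± 4.28 CPM in EC (SD, n = 2) against 6.99, 7.51 and 7.02 in CM (log2 fold change 3.77, SE 0.09, adjusted p = 6.95e-11, edgeR). The remaining 3 lay nearest to 1700020N01Rik, Mroh5 and 4930543E12Rik, each at 0.106 CPM or less in every library.

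Genes beside the regions were then compared between EC and CM, which the rule had not used. A gene was called beside a region when its start was the nearest one and lay within 50 kb. The RNA libraries held 21682362 to 48393473 reads on genes. Their labels held up on marker genes: 24 endothelial genes summed to 8283 and 8455 CPM in EC and 1464 to 1615 CPM in CM, and 26 sarcomere genes to 1162 and 1167 CPM in EC and at least 117282 CPM in CM. Erythroid genes summed to 74.4 and 77.9 CPM in EC and to 1810, 3005 and 3740 CPM in CM. Other blood lists differed. Megakaryocyte and platelet genes summed to 1027 and 1049 CPM in EC and 156 to 193 in CM, with 15 of 15 EC-higher. Progenitor genes summed to 970 and 999 CPM in EC and 310 to 330 in CM. Macrophage and leukocyte genes summed to 55.2 and 52.6 CPM in EC and 56.4 to 78.4 in CM, but 13 of 17 tested were EC-higher. The part of blood cells in the calls was not tested. In such bulk samples, fewer cells of a type and less RNA per cell cannot be told apart.

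Genes beside the regions divided evenly between EC and CM. Of 260 such genes, 169 passed the filter on low counts, and of these 65 (38.5%) were EC-higher and 63 (37.3%) CM-higher (edgeR quasi-likelihood test, adjusted p under 0.05). Among all 14851 genes tested, 37.5% were EC-higher and 40.2% CM-higher, or 77.8% in either direction, so both shares were near the background. The median log2 fold change of the 169 was -0.05, against -0.06 for all genes tested. Many of the genes were hardly expressed: 111 of the 260 (42.7%) averaged under 1 CPM in both EC and CM, compared with 45.8% of all genes in the table and 30.4% of genes beside open Tie2-Cre-selective regions.

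The open class differed in direction. Of its called genes 65.4% were higher in EC (1033 higher in EC and 547 higher in CM), against 50.8% beside the 700 regions (exact binomial 95% interval 41.8% to 59.7%, for counting error only, since genes are not replicates). The share was 34.7% beside Tnnt2-Cre-selective regions not open in EC, 50.3% beside shared regions and 48.3% over all genes. The medians followed, at 0.50 beside the open class and -0.44 beside the Tnnt2-Cre-selective class. With starts 10 to 50 kb away only, a split added after the data were seen, the shares were 49.5% beside the 700 regions and 62.8% beside the open class. The share was 51.2% with the nearest start at any distance (171 higher in EC and 163 in CM).

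The genes were also divided by whether an open Tie2-Cre-selective region lay beside them. Of the 260 genes, 77 had one, and of their called members EC was higher for 28 and CM for 15 (65.1%, 95% interval 49.1% to 79.0%). The other 183 had none, and EC was higher for 37 and CM for 48 (43.5%, 32.8% to 54.7%). The intervals of these groups overlap, and the difference between them was not tested. For comparison, the share was 65.4% for all genes beside open Tie2-Cre-selective regions, near that of the 77, which are among them. Over all genes tested it was 48.3%, within the interval of the 183. For 48 genes the region was the only kind of GATA4 region beside them. Of these, 24 passed the filter, with 8 higher in EC and 14 higher in CM. That is 36.4% of the called ones (95% interval 17.2% to 59.3%, which includes the 48.3% of all genes).

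**Figure D4:**
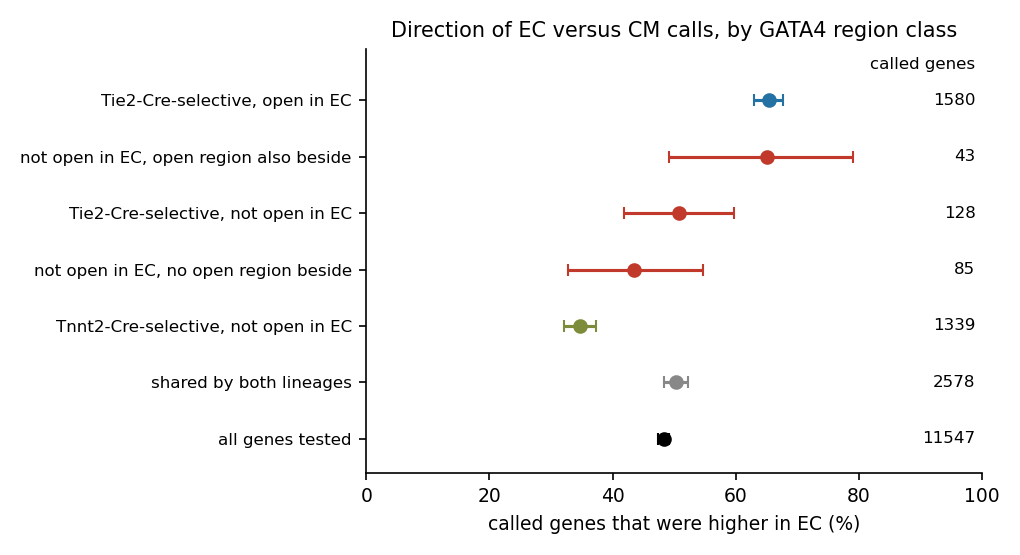
Share of called genes that were higher in EC (x axis, %) beside each class of GATA4 region (y axis), with exact binomial 95% intervals for counting error and the number of called genes at the right. Genes beside regions not open in EC stand at 50.8%, near all genes tested (48.3%) and below the open class (65.4%).

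Named genes were the 8 greatest differences each way among genes beside the regions that reached 20 CPM in each of the libraries of the higher side, a rule that 44 genes higher in EC and 38 higher in CM met. On the EC side, St8sia2, a polysialyltransferase gene, came first. It had 44.7 and 47.6 CPM in EC and 0.812, 1.36 and 0.942 in CM, so that the groups lay far apart (log2 fold change 5.48, SE 0.17, adjusted p = 3.61e-10, edgeR). Its region lay between genes on chromosome 7 (74016714 to 74016905), 3032 bp from the start, and had no peak in any Cdh5-CreERT2 list. Slco2a1, a prostaglandin transporter gene, had 51.6 and 44.4 CPM in EC and 2.81, 2.68 and 2.22 in CM (log2 fold change 4.22, SE 0.13, adjusted p = 4.21e-10, edgeR). Its region lay in its own intron on chromosome 9 (103036839 to 103037260), 28350 bp from the start, with a peak in 3 of the 6 lists.

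The other 6 genes on the EC side had diverse roles. Apcdd1, an inhibitor of Wnt signalling, had 79.1 and 79.6 CPM in EC and 7.01 to 7.68 in CM, with a region in its intron and no Cdh5-CreERT2 peak there. Sox5, a transcription factor gene of the SoxD group, had 45.9 and 46.9 CPM in EC and 4.29 to 5.11 in CM, with an intronic region on chromosome 6 (144173156 to 144173522). Sema6a, a transmembrane semaphorin gene, had 28.0 and 27.5 CPM in EC against 3.60 to 5.05 in CM, and its region lay 36622 bp from the start. Rgs3, a regulator of G-protein signalling, was the most abundant, with 256 and 245 CPM in EC against 39.8 to 45.2 in CM, and its intronic region lay on chromosome 4 (62569732 to 62569951). Sh3rf1, which encodes a scaffold of JNK signalling, had 58.4 and 55.2 CPM in EC and 7.47 to 8.92 in CM. Slc22a23, a solute carrier gene, had 207 and 206 CPM in EC against 25.5 to 33.2 in CM, and its region on chromosome 13 (34363505 to 34363998) had a peak in 5 of the 6 Cdh5-CreERT2 lists. The log2 fold changes of these 6 lay between 2.55 and 3.43. Each of the 8 genes also had at least 1 open Tie2-Cre-selective region beside it, so the region described was not the only Tie2-Cre-selective one within 50 kb.

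On the CM side, Perp, which encodes a membrane protein of desmosomes, differed most. It had 2.41 and 1.81 CPM in EC and 139, 122 and 135 in CM (log2 fold change -5.94, SE 0.14, adjusted p = 7e-11, edgeR). Its region lay 4239 bp from the start on chromosome 10 (18840421 to 18840832) and had no Cdh5-CreERT2 peak. Sorl1, a sorting receptor gene, had 2.76 and 3.80 CPM in EC and 21.1 to 25.3 in CM, with a region in its intron on chromosome 9 (42079584 to 42079827). The uncharacterised 1810022K09Rik had 16.8 and 11.1 CPM in EC against 95.1 to 96.5 in CM, and its region was the closest of the 8 to a start, at 1939 bp. Spon2, a secreted matrix protein gene, had 4.47 and 4.80 CPM in EC and 21.5 to 27.7 in CM. Mycn, the proto-oncogene that drives growth of embryonic myocardium, had 18.7 and 16.5 CPM in EC and 68.0, 67.2 and 76.6 in CM (log2 fold change -2.0, SE 0.10, adjusted p = 1.73e-08, edgeR).

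The last 3 showed smaller differences. Hsdl2, a dehydrogenase-like gene, had 17.6 and 24.3 CPM in EC against 63.4 to 75.0 in CM, and its region on chromosome 4 (59565913 to 59566132) had a peak in 5 of the 6 Cdh5-CreERT2 lists. Dyrk2, a protein kinase gene, had 16.2 and 16.3 CPM in EC and 43.8 to 53.0 in CM. Epdr1, an ependymin-related gene, had 7.41 and 10.5 CPM in EC and 21.2 to 26.3 in CM. In all 8 the EC and CM libraries did not overlap, as the choice by size of difference makes likely. Of these 8, Mycn alone had an open Tie2-Cre-selective region beside it. Over all called genes beside the regions, which were not picked for size of difference, 28 of 65 EC-higher genes (43.1%) and 15 of 63 CM-higher genes (23.8%) had one, and this difference was not tested.

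**Figure D5:**
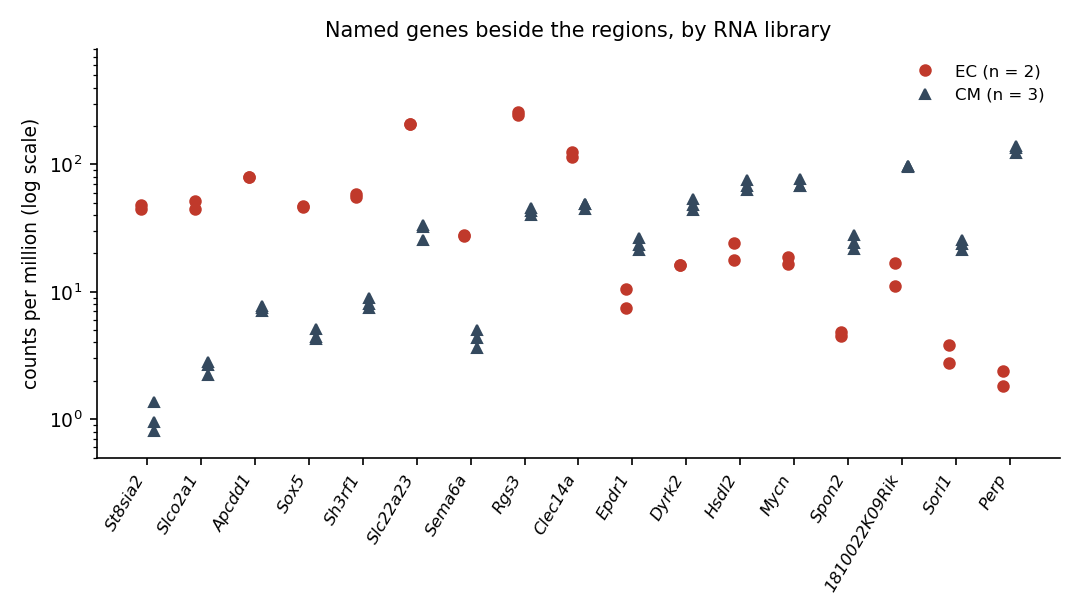
Expression of the named genes (y axis, CPM, log scale) in the 2 EC libraries (red circles) and 3 CM libraries (dark triangles), ordered by log2 fold change along the x axis. St8sia2 at the left averages 46.2 CPM in EC and 1.04 CPM in CM, and Perp at the right shows the opposite order.

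Genes of the tissue's main programmes were then looked up. Of 308 genes in 19 lists of endothelial, endocardial, blood, cardiomyocyte and signalling genes, 2 (0.649%) had one of the 700 regions beside them, where 1.08% of all placed genes did, so the count is too small to set apart from the share over all genes. Open Tie2-Cre-selective regions lay beside 88 of the 308 (28.6%; 10.6% of all genes). Tnnt2-Cre-selective regions not open in EC lay beside 23.4% (9.22% of all genes) and shared regions beside 30.8% (16.2% of all genes). One of them was Clec14a, an endothelial C-type lectin gene, with 2 regions on chromosome 12 (58285802 to 58286171 and 58305553 to 58305905), 16544 and 36295 bp from its start, and no open Tie2-Cre-selective region. It had 114 and 125 CPM in EC and 49.1, 48.7 and 44.4 in CM (log2 fold change 1.33, SE 0.08, adjusted p = 7.02e-08, edgeR). Apart from Clec14a, the single gene with more than 1 of the regions beside it was 4930433B08Rik, with 2 regions and 0 counts in each library.

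Tie2-Cre can mark blood cells as well. None of the 67 erythroid, megakaryocyte and platelet, macrophage and leukocyte or haematopoietic progenitor genes had one of the 700 regions beside it, and neither did any GATA factor or cofactor gene. With 1.08% of all placed genes beside one of them, a count of 0 in lists of this size says little. Open Tie2-Cre-selective regions lay beside 0 of 18 erythroid, 7 of 15 megakaryocyte and platelet, 2 of 20 macrophage and leukocyte and 5 of 15 progenitor genes. Such regions lay beside 10.6% of all placed genes, and the lists can share genes. The part of blood cells in the Tie2-Cre GATA4 peaks was not tested.

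With the distance limit lifted, more list genes came into view, and this look was added after the data were seen. For 23 of the 700 regions the nearest start at any distance belonged to 17 list genes, of which 16 were tested, with 11 higher in EC and 2 in CM. Of all 293 list genes tested, 58.4% were EC-higher and 34.5% CM-higher, and nothing is read from the count of 11. Gata3, a GATA factor gene, had a mean of 27.2 ± 4.02 CPM (SD) over the 2 EC libraries against 0.638 ± 0.0957 over the 3 CM libraries, with regions on chromosome 2 that lay 74125 and 236569 bp away. Kdr, the main VEGF receptor gene, had 882 ± 0.226 CPM in EC and 139 ± 8.66 in CM, with a region 56136 bp away. Emcn, the gene of the endothelial sialomucin endomucin, had 3 regions at 240246 to 319441 bp, the most of any list gene. Edn1 (endothelin-1), Fli1 (an ETS factor) and Adgrg6 (an adhesion receptor acting in endocardium) had regions 66892, 81919 and 52933 bp away. Nrg1, the neuregulin gene through which endocardium signals to myocardium, had 36.9 ± 2.67 CPM in EC against 3.52 ± 0.519 in CM, and its region lay 197805 bp away. Each of these 7 genes, picked from the EC-higher ones, was higher in EC, by 1.97 to 5.41 on the log2 scale. The 2 CM-higher genes were the transcription factor genes Meis1 (log2 fold change -0.90, adjusted p = 3.99e-06, edgeR) and Mef2a (-0.24, adjusted p = 0.041, edgeR). Jag1, Runx1 and Kcnj2 did not pass the test, at 0.00, -0.30 and 0.29. At such distances the nearest start is a label for the place and no evidence of a target.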

How the data were processed

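GATA4 occupancy, open chromatin and RNA came from E12.5 mouse ventricles, in 21 samples of 8 groups; 2 cardiomyocyte ATAC samples were not analysed here. The authors deposited 1 peak list per library, with a fold over background, −log10 p and −log10 q values, a score and a signal per peak, and gene read counts made with featureCounts 1.6.3, per the file headers. The submitters' processing notes also list MACS2 2.2.4, Bowtie2 2.2.9, Bowtie 1.1.1 and STAR 2.7.3a, without roles. Use of a control library in peak calling is not stated there. Whether a peak is listed depends on that library's depth, which the lists do not give.

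Peaks sharing 1 bp were merged and compared in Python 3.11.15. Counts were tested with edgeR 4.0.16 under R 4.3.3 (TMM scaling, the filterByExpr filter, Benjamini-Hochberg adjustment, threshold 0.05); DESeq2 1.42.0 was an alternative. On simulated counts for the 14851 genes of the EC and CM comparison, 79.4% of genes changed 2-fold and 93.8% changed 4-fold were recovered, with 13.2 and 16.2 false calls per run. Far fewer genes were changed in the simulation than were called in the data, so these figures do not carry over to the real calls. CPM are counts scaled to effective library size. Gene positions are mm10, from the count table, and 24101 of 24421 genes could be placed. The table does not mark UTRs.

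The members and lists were chosen with earlier results of these data known. Named regions were the 6 with the highest mean percentile of signal among those in all 3 Tie2-Cre lists, and those with a peak in all lists of 1 genotype and none of the other. Named genes were the 8 greatest differences each way with at least 20 CPM, up to 3 per list, and those with most regions; 1 gene that the rule names is not reported here. Alternatives were equal list length, stricter peaks (−log10 q of 5 or more), an overlap of 0.5 of the region, 3 of 3 lists, an open region within 500 bp, distances of 20 and 100 kb, a test against 2-fold, other scalings, all genes unfiltered, leaving out each library and the replicate block.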

Additional observations from a re-analysis of the deposited data

How the results depend on the processing

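The number of regions was 42 with lists of equal length, 43 with 3 of 3 Tie2-Cre lists and 414 with no peak in either EC ATAC list. It ran from 47 to 792 with 1 library left out. Leaving out Tie2-Cre replicates 1 and 3 gave 54 and 47, where both remaining Tie2-Cre lists had to hold a peak. The share within 50 kb of a start was 31.0% with equal lists, 23.3% with 3 of 3 lists and 27.7% to 38.0% with a library left out. The share of called genes higher in EC was 66.7% with equal lists (6 called genes) and 50% to 75.0% with a library left out, the latter with 4 called genes without Tie2-Cre replicate 1. The 2-fold test called 5244 genes in place of 11547. The 17 named genes with a test kept direction and call in 187 of 187 refits. Most of them were picked for large differences in these same counts, so this was likely from the choice.

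The het minus ko difference ran from -2.79 (without ko replicate 4) to 10.1 points with a library left out, and it passed no test. The difference from the open class ran from -64.4 to -62.6 points and that from the Tnnt2-Cre-selective class from 14.8 to 19.2 points with a library left out, where 5 libraries cannot give p under 0.0625. The latter was 2.62 points with strict ATAC peaks, and the cause was not tested.

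With the replicate number as a block, 10977 genes were called in RNA. Same-numbered EC and CM libraries did not deviate together (correlations -0.0196 and -0.00877). With the block by pairs, the het minus ko difference of 3.9 points had an exact p of 0.5. The correlations of same-numbered het and ko libraries were 0.0425, 0.0342 and 0.115, each the highest for its library, which is a hint from the data and not from the design. The planned motif windows were not run, as no genome sequence was used here.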

Other observations

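Several single regions may merit a look by eye; they were picked after their values were seen. The highest fold among the 700 was 22.2, in Tie2-Cre replicate 3, at a region on chromosome 7 (8078131 to 8078385), 14652 bp from 2810047C21Rik1. The same region had a fold of 7.90 in replicate 1, no replicate 2 peak and no ATAC peak in any of the 8 endothelial lists. A region on chromosome 2 (55611521 to 55611999), 175551 bp from the potassium channel gene Kcnj3, stood at percentiles 99.3, 31.0 and 99.7 in the 3 Tie2-Cre lists. Kcnj3 had 0.248 and 0.0905 CPM in EC and 40.5, 44.0 and 38.5 CPM in CM (log2 fold change -7.82, SE 0.23, adjusted p = 2.83e-10, edgeR quasi-likelihood test). That region had a peak in EC ATAC replicate 2 and in 4 of the 6 Cdh5-CreERT2 lists.

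The X chromosome held 13 of the 700 regions (1.86%), compared with 0.89% of the open class and 1.59% of Tnnt2-Cre-selective regions not open in EC. Of all merged GATA4 regions it held 1.29%.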
